A study of Mus musculus with 4 samples.

Results

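The genes of the synaptic vesicle and of its release machinery were followed in mouse hypothalamus after an osmotic challenge, in RNA that came down with phosphorylated ribosomes and in total RNA. Members were taken by gene symbol, whatever their values: synaptotagmins, synapsins, syntaxins, syntaxin binding proteins, vesicle-associated membrane proteins (Vamp), the SNAP proteins Snap23, Snap25, Snap29 and Snap91, the Sv2 and Rab3 families, complexins, Rims and Unc13 genes, Doc2 genes and synaptophysin (Syp). The array held 71 such genes on 102 probes, of 17916 genes on 25697 probes. A probe was kept when its detection p was under 0.01 on at least 2 arrays, which left 60 members on 79 probes, of 10182 genes on 14199 probes.

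Fast transmitter release runs through a small set of proteins. A vesicle carrying Vamp2 (synaptobrevin) is brought to the active zone by Rab3 and Rim proteins and primed by Unc13 (Munc13) proteins. Its Vamp2 then zips up with the plasma membrane proteins Stx1a (syntaxin 1A) and Snap25 into a SNARE complex, held by complexins until calcium binds a synaptotagmin such as Syt1. In the hypothalamus the same core also serves the release of peptide hormones from large dense-core vesicles, among them vasopressin, which is secreted when the blood becomes too concentrated.

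The salt group was C57Bl/6J mice of 12 weeks given 325 uL of 2 M NaCl, and the control group was mice of the same strain and age given phosphate-buffered saline. In both groups the water was taken away and the mice were killed 2 h later, at about circadian time 6. The hypothalamus was dissected and homogenised, and ribosomes carrying phosphate on residues 244 and 247 of the ribosomal protein S6 were pulled down by immunoprecipitation (IP). This phosphate is a mark that rises in active neurons but can be carried by any cell type. Total RNA of the same homogenate was the input. There were 2 salt and 2 control samples with 1 IP and 1 input array each, 8 Illumina BeadArrays in all. Whether 1 mouse or several went into a sample is not given in the labels, and the spread behind the p-values may therefore be technical.

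Levels are background-corrected and quantile-normalized log2 intensities, and the log2 IP/input ratio of a sample is its IP level minus its input level. Tests are limma's moderated tests, two-sided, with p-values adjusted by Benjamini-Hochberg over all 14199 probes and a threshold of 0.05. Errors are standard errors (SE) of the fit with n = 2 samples per group, and a gene with several probes is given by its brightest probe. Because intensities of different probes are not comparable, only ratios and differences are set side by side between genes. In tissue RNA, fewer cells of a type and less RNA per cell cannot be told apart.

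Median intensity was 143.3 to 161.9 over the 8 arrays, with 13058 to 13808 probes detected in the IP and 12259 to 12705 in the input. All 8 of the neuron markers on the array were detected on every array, with summed intensities of 12510 to 14066 on salt IP and 13554 to 13774 on control IP arrays, against 13377 to 13835 on salt input and 13594 to 14087 on control input arrays. Microglial markers, 4 of 7 measured and Csf1r and C1qa undetected throughout, summed to 343.1 and 346.7 on salt IP arrays and 484.6 and 518.7 on control IP arrays. On input arrays they summed to 635.5 and 749.2 in salt and 706.2 and 732.2 in control. Ependymal markers (3 of the 4 on the array measured, Tm4sf1 undetected) summed to 180.7 to 317.7 in the IP and 640.5 to 759.3 in the input. Astrocyte markers (all 7 measured) summed to 4500 to 7692 in the IP and 6510 to 7433 in the input, and oligodendrocyte markers (all 7 measured) to 14953 to 17369 in the IP and 17575 to 18008 in the input. Of 7 endothelial markers 2 were measured and Pecam1, Ly6c1, Slco1a4 and Kdr were undetected, with sums of 104.7 to 273.5 in the IP and 108.2 to 142.2 in the input. The part of these other cells in the IP/input ratios below was not tested. As a check of the stimulus, 2 immediate early genes, Fosb and Fos, and the hormone genes Avp (vasopressin) and Oxt (oxytocin) were followed. On the log2 scale Fosb was higher in the salt IP than in the control IP by 4.29 ± 0.20 (adjusted p = 4.5e-05). Avp was higher by 3.41 ± 0.36 (adjusted p = 0.0125) and Fos by 3.15 ± 0.40 (adjusted p = 0.0219). Oxt, at 1.05 ± 0.28, did not pass (adjusted p = 0.499 in limma). In the IP/input ratio none of these genes passed, with differences of 3.26 for Avp, 1.32 for Fosb, 1.27 for Oxt and 1.16 for Fos.

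Of the 71 members, 53 were detected on all 8 arrays. The 11 that were not kept were the retinal complexins Cplx3 and Cplx4, Doc2g, Rims4, Unc13d, Vamp5, Stx19, a probe named Stx1b1 in the file, Syt8, Syt10 and Syt15. Of these, 10 were undetected on all arrays and Rims4 was detected on 1. Among the measured members Stx2, Syt2 and Syt14 were undetected on all 4 input arrays, so they were kept through IP arrays alone. For Stx2 and Syt2 the IP/input ratio had to come out high for the gene to be kept, and neither counts as support for any pattern. Counts are therefore also given over the 57 members detected in the input. Unc13a (Munc13-1), the main priming protein of forebrain synapses, was not analysed here.

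No measured member passed the test between salt and control in any of the 3 readouts. In the IP/input ratio 0 of 60 members passed in either direction, as did 0% of all genes, and 0 members reached an unadjusted p of 0.05, where 1.36% of all genes did so on the higher side and 1.21% on the lower. In the IP itself 0 members passed, against 0.167% of genes higher and 0% lower, and at an unadjusted p under 0.05 there were 1 member higher and 2 lower (all genes, 3.02% and 2.85%). Of the 2 lower members Syt2 was kept through its control IP arrays alone and had to come out lower in salt. In the input 0 members passed, against 0.0196% of genes higher and 0% lower, and 0 members reached an unadjusted p of 0.05 (all genes, 1.14% and 1.11%). All of these are limma's counts.

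The spread of the differences was narrow. The log2 IP/input ratio, salt minus control, ranged over members from -0.57 to 0.43 with a median of 0.05 (all genes, 0.01), and 35 of 60 were above 0. The log2 IP level differed by -0.63 to 0.37 with a median of 0.03, and the log2 input level by -0.33 to 0.43 with a median of -0.03, while the medians of all genes were 0.00 for both. In the ratio, both salt samples lay above both control samples in 9 members (15%) and below them in 5 (8.33%), against 13.5% and 13.6% of all genes. In the IP the same held for 14 members above (23.3%) and 11 below (18.3%), against 15.5% of all genes each way. In the input it held for 2 above (3.33%) and 4 below (6.67%), against 13.5% and 11.9% of all genes.

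These samples limit how small a difference could be seen. The 95% interval of the salt minus control difference lay within 1 log2 unit of 0 for 51 of 60 members in the ratio, for 59 in the IP and for 59 in the input. Its median half-width was 0.55 in the ratio and 0.42 in the IP and in the input. These intervals are not adjusted for the number of probes, and the adjusted test asks for larger differences than these half-widths. In the ratio even Avp, at a log2 difference of 3.26 ± 0.32, did not pass (adjusted p = 0.116 in limma). The absence of calls in the ratio therefore does not exclude sizeable differences.

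For the core of the fusion machine no difference between salt and control passed. Stx1a, the plasma membrane syntaxin of the synaptic SNARE complex, had IP levels of 7.24 and 7.22 in salt, against 7.39 and 6.99 in control, and input levels of 8.27 and 7.98 in salt, against 8.28 and 7.999 in control. Its log2 ratio differed between salt and control by 0.05 ± 0.23 (95% interval -0.48 to 0.57). The salt and control arrays overlapped in both fractions.

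Snap25, the SNARE partner of Stx1a, had IP levels of 7.38 and 7.62 in salt, against 7.09 and 7.61 in control, and input levels of 8.57 and 8.20 in salt, against 8.46 and 8.67 in control. Its ratio differed by 0.33 ± 0.28 (-0.31 to 0.97), a wider interval than that of Stx1a. Vamp2, the vesicle SNARE, differed in its ratio by 0.15 ± 0.22 (-0.37 to 0.67).

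Syt1, the calcium sensor of synchronous release, had IP levels of 9.47 and 10.01 in salt, against 9.64 and 9.80 in control, and input levels of 10.17 and 10.19 in salt, against 10.10 and 10.21 in control, with a difference in ratio of -0.00 ± 0.25 (-0.58 to 0.58). Syp, the vesicle membrane protein used as a stain for terminals, had IP levels of 13.10 and 13.003 in salt, against 13.10 and 13.10 in control, and its ratio differed by 0.06 ± 0.23 (-0.46 to 0.59). Its probe ranked 13th by brightness on 3 of the 4 IP arrays, and quantile normalization gives probes of 1 rank the same level, so these levels say little of how far Syp varied. With median scaling the IP levels were 12.83 and 12.78 in salt, against 12.82 and 12.76 in control. For the other members of the core set the difference in ratio was 0.09 ± 0.26 for Rab3a, the vesicle GTPase, 0.04 ± 0.24 for Syn1, which ties vesicles into the reserve pool, and 0.12 ± 0.22 for Sv2a, a vesicle glycoprotein. It was -0.18 ± 0.23 for Cplx1 and -0.33 ± 0.36 for Cplx2, the complexins that clamp and assist the SNARE complex. None of these reached an unadjusted p of 0.05.

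The members that came nearest to a difference in the IP are few, and none passed. Syt5, a synaptotagmin found on dense-core vesicles, had IP levels of 8.56 and 8.50 in salt, against 8.14 and 8.18 in control, so both salt arrays lay above both control arrays. The difference was 0.37 ± 0.15 (unadjusted p = 0.0356 and adjusted p = 0.87 in limma), and the input levels of 8.86 and 8.76 in salt, against 8.91 and 8.79 in control differed by -0.04 ± 0.15.

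Syt2, the fast calcium sensor of hindbrain and spinal synapses, was detected on both control IP arrays and on no other array. Its IP levels were 5.51 and 5.59 in salt, against 5.97 and 6.10 in control, at least 1.12-fold lower in salt. It passed the filter through the arrays where it was higher, so its difference is given without a test. Stxbp2 (Munc18-2), the Munc18 form best known from mast cells, platelets and epithelia, had IP levels of 6.99 and 6.41 in salt, against 7.67 and 6.99 in control, where salt replicate 1 and control replicate 2 met at 6.99, and differed by -0.63 ± 0.28 (unadjusted p = 0.0499, adjusted p = 0.893 in limma). The summed microglial markers were also lower in the salt IP than in the control IP, as given above, but the single markers differed. In the IP, Aif1 differed by -0.75 ± 0.20 and P2ry12, undetected in the salt IP, by -0.72 ± 0.15. Cx3cr1 differed by -0.08 ± 0.22 and C1qb, undetected in the control IP, by 0.10 ± 0.23. None of these passed. The part of microglia in the Syt2 and Stxbp2 values was not tested.

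In the IP/input ratio the lowest unadjusted p among members belonged to Stx3, a syntaxin of ribbon synapses and of postsynaptic exocytosis, at 0.0769. Its ratios were 1.18 and 0.48 in the salt samples, against 1.30 and 1.49 in the control samples, without overlap, and differed by -0.57 ± 0.28 (-1.22 to 0.08). The IP levels of Stx3 overlapped at 9.03 and 8.57 in salt, against 8.94 and 8.94 in control, and the input levels did not, at 7.86 and 8.09 in salt, against 7.64 and 7.44 in control (a difference of 0.43 ± 0.19, unadjusted p = 0.0515 and adjusted p = 1 in limma).

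**Figure D1:**
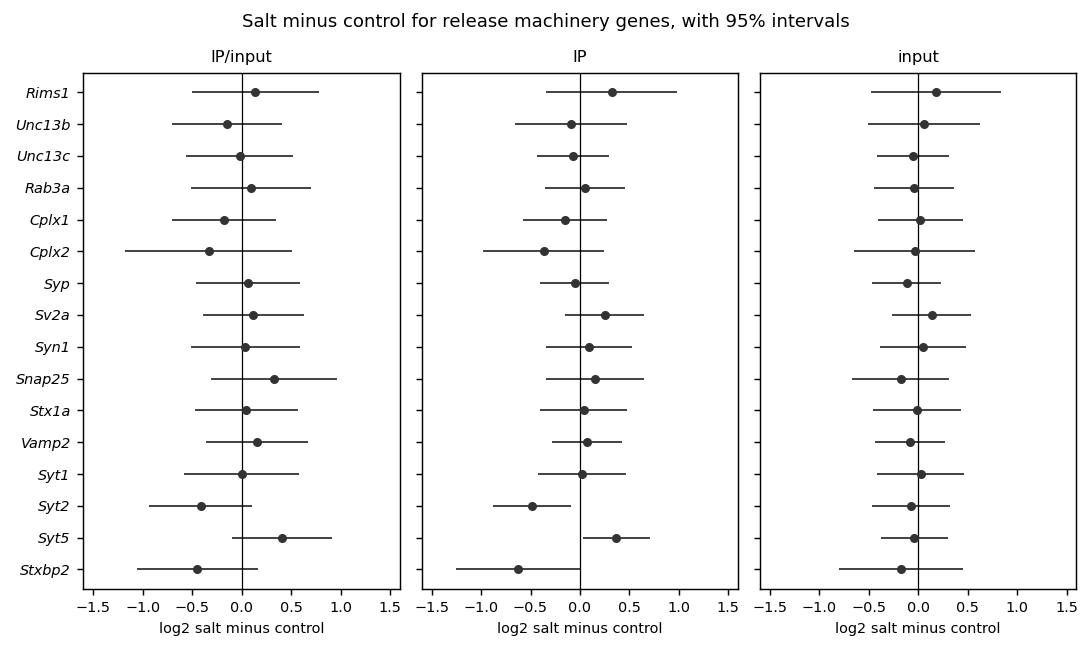
Log2 difference of salt minus control (horizontal axes) for members of the release core and of the paragraphs above, in the IP/input ratio, the IP and the input, with 95% intervals from the limma fits as bars (n = 2 samples per group). Stx3, with the ratio difference furthest from 0 among members (-0.57), is not drawn. The points gather around 0, and Syt5 and Stxbp2 in the IP have intervals that leave out 0 before adjustment for the number of probes, as has Syt2, which was kept through its control IP arrays alone.

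The phospho-S6 IP recovered the members to different degrees, from 3.92-fold above the input for Unc13b to 2.32-fold below it for Snap25 in the control samples. In the salt samples 10 of 60 members (16.7%) had a log2 IP/input ratio above 0 that passed, and 9 (15%) one below 0, against 18.2% and 18.6% of all genes. In the control samples these were 13 members (21.7%) above and 10 (16.7%) below, against 19.4% and 20.9% of all genes. The counts by role below are to be read beside these same shares of all genes. Over the 57 members detected in the input, which leave out Stx2, Syt2 and Syt14, there were 9 above and 9 below in salt and 11 above and 10 below in control. The shares of all genes were not recounted over those detected in the input. The medians over all 60 members were 0.02 in salt and 0.01 in control, with -0.04 and -0.05 for all genes. Single members ranged from -1.30 to 1.82 in salt and from -1.21 to 1.97 in control.

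The calls of both groups fell largely on shared members. Of those above 0, 10 were called in both groups, which is 10 of 10 in salt and 10 of 13 in control. Of those below 0, 7 were called in both, 7 of 9 in salt and 7 of 10 in control. Both groups were fitted in 1 model and share its estimate of the spread. The overlap was not counted over all genes, so it is not read as a trait of the members.

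The balance of higher against lower calls depended on the scaling of the arrays. With median scaling in place of quantile normalization, calls were 9 higher and 17 lower in salt, and 11 higher and 17 lower in control. Of all genes, 14.4% were higher and 28% lower in salt under that scaling, and 15.5% higher and 29% lower in control, so the excess of lower calls was shared by all genes. That scaling moved the median of all genes to -0.19 in both groups, so the ratios below are relative to where the scaling sets the bulk of genes. Vamp2, Syt1, Rab3a and Vamp4, not called below, passed as lower in both groups under median scaling, and Cplx1 and Snap91 in salt. Control calls also leaned on both control samples, with fewer members called each way when either was left out. Calls over all genes were not counted without these samples, so the loss is not read as a trait of the members. The control calls of Unc13b, Rims1, Rims2 and Stx3 above 0 and of Snap25 below it remained without control replicate 2.

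**Figure D2:**
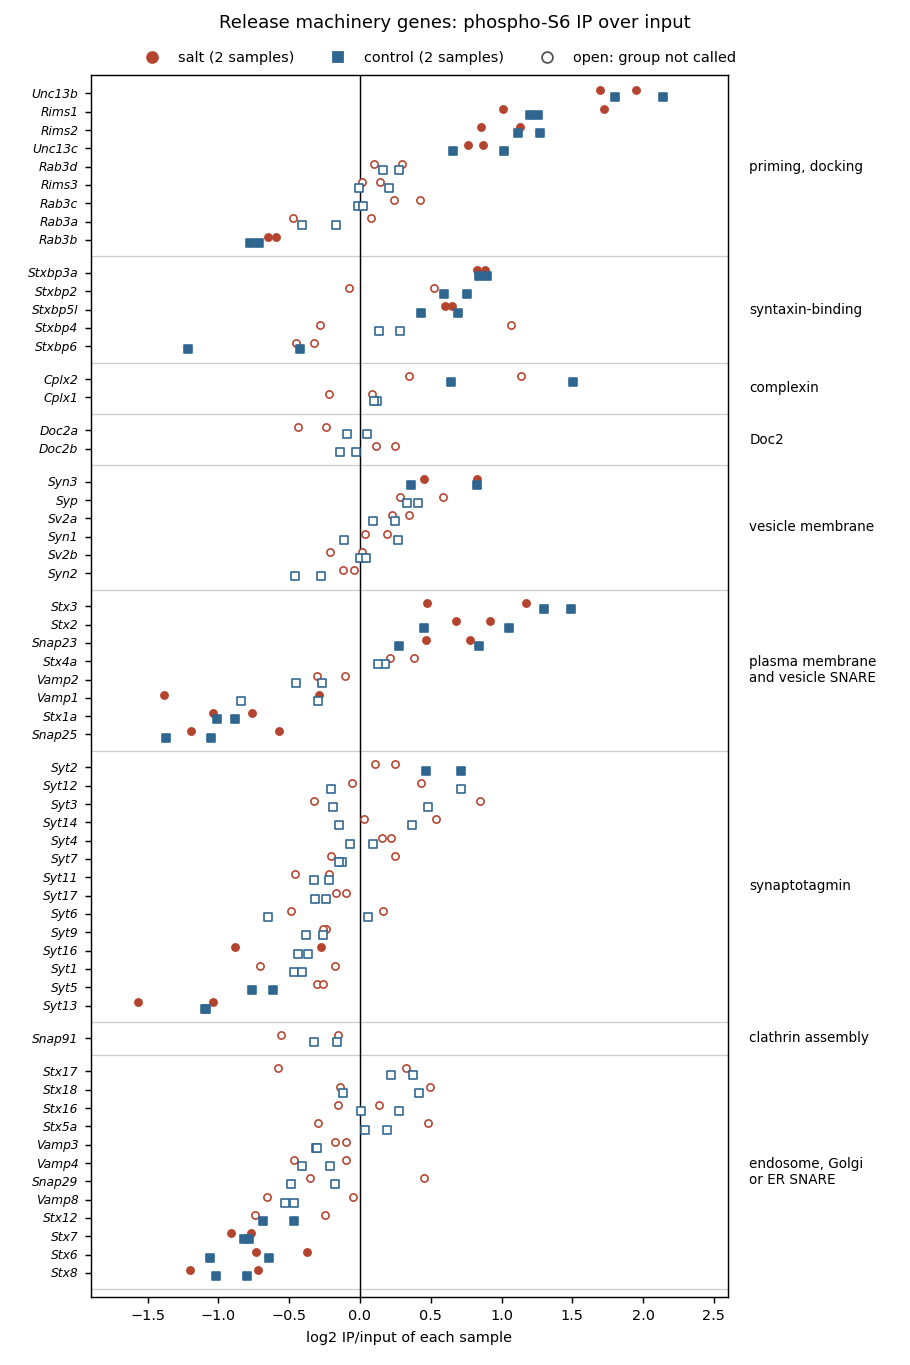
Log2 IP/input ratio (horizontal axis) of every sample for 59 of the 60 measured members by role, with salt circles drawn above control squares in each row and open symbols where the group was not called. Unc13b has the highest ratios, 1.69 to 2.14 over 4 samples, and Syt13, Snap25 and Stx1a lie below 0 in all 4 samples.

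The priming and docking genes held the members with the 3 highest mean ratios in salt, Unc13b, Rims1 and Rims2, and in control Stx3, a fusion SNARE, came between Unc13b and Rims1. Of 9 measured, 4 were called higher and 1 lower in each group, with a median ratio of 0.33 in salt and 0.22 in control (0.19 in both with median scaling, 0.41 and 0.398 with IP and input normalized apart, and 0.12 in control with the deposited ratios). The promoters of Unc13b and Rims1, the highest 2 of this set, and of Stx1a and Rab3b, recovered below their input, are given here as RefSeq has them on GRCm38.p6, the 250 bases before the gene start, 5′ to 3′ on the gene's strand. They show the promoter letters of genes called on opposite sides of 0. Capitals mark the GC box (GGGCGG, or CCGCCC on the other strand) and the TATA box (TATAAA). A cAMP response element (CRE, TGACGTCA) was also searched on both strands and was in none of the 4.
Unc13b, chr4:43058703-43058952, plus strand: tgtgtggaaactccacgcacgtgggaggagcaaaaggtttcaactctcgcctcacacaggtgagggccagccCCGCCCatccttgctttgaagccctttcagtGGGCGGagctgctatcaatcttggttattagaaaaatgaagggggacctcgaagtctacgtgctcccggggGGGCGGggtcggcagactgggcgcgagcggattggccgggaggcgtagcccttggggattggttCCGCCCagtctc
Rims1, chr1:22806159-22806408, minus strand: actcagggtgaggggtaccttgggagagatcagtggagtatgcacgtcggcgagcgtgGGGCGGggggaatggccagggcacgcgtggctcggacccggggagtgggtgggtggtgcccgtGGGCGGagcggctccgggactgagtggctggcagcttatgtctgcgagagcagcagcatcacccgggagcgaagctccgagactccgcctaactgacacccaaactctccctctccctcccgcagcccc
Stx1a, chr5:135023232-135023481, plus strand: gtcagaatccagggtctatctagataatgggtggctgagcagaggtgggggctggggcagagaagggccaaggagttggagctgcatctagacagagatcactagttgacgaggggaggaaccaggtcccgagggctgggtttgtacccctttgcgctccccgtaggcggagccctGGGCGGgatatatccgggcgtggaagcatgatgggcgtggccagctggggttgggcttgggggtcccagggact
Rab3b, chr4:108878820-108879069, plus strand: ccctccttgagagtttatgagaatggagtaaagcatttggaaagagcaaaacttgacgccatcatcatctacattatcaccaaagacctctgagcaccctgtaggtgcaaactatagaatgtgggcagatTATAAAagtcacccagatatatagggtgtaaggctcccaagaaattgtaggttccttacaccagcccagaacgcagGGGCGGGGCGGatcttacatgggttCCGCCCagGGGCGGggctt

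Unc13b and Rab3b each held 4 GC boxes, of which 2 overlap in Rab3b, Rims1 held 2 and Stx1a held 1, and the TATA box was found in Rab3b alone of the 4. In 300-base windows that reach 50 bases past the start, 39 of the 52 members in the RefSeq promoter table held a GC box (75%), against 38.2% of all 27025 promoters there. The CRE was in 1 of the 52 (1.92%), against 2.03% of all, and the TATA box in 4 (7.69%), against 15.7%. Among members higher in the control IP, 6 of the 10 with a promoter in the table held a GC box (60%), and among those lower 6 of 7 did (85.7%). These counts describe letters only. The 27025 promoters include genes not measured here, so the shares are not read as a trait of the members.

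Unc13b encodes Munc13-2, which primes vesicles by opening syntaxin. Its log2 ratios were 1.95 and 1.69 in the salt samples, against 2.14 and 1.80 in the control samples. Its IP levels of 9.05 and 8.49 in salt, against 9.14 and 8.58 in control, were all above its input levels of 7.10 and 6.79 in salt, against 7.0004 and 6.77 in control. The mean ratio was 1.82 ± 0.17 (adjusted p = 0.00154) in salt and 1.97 ± 0.17 (adjusted p = 0.000798) in control in limma, or 3.54-fold and 3.92-fold.

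Unc13c (Munc13-3), known best from the cerebellum, had ratios of 0.87 and 0.77 in the salt samples, against 0.66 and 1.02 in the control samples. Its means were 0.82 ± 0.17 (adjusted p = 0.00875) in salt and 0.84 ± 0.17 (adjusted p = 0.00691) in control, and the control call was lost without control replicate 2. Both Unc13 genes measured were above 0 in all 4 samples.

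Rims1 and Rims2 encode the large Rim scaffolds, which link Rab3 on the vesicle to Munc13 and to calcium channels. Rims1 had ratios of 1.72 and 1.01 in the salt samples, against 1.26 and 1.20 in the control samples, and Rims2 of 1.13 and 0.86 in the salt samples, against 1.12 and 1.27 in the control samples. Both were above 0 in all 4 samples. The means for Rims1 were 1.37 ± 0.20 (adjusted p = 0.00301) in salt and 1.23 ± 0.20 (adjusted p = 0.00339) in control. Those for Rims2 were 0.99 ± 0.16 (adjusted p = 0.00424) in salt and 1.20 ± 0.16 (adjusted p = 0.00195) in control. A second Rims1 probe, undetected on every input array, was at least 1.41-fold above its input in control and was not called in salt. It was kept through IP arrays alone and had to come out high, so it is no support for the first probe. With the mean of both probes the salt value for Rims1 was 0.86. Rims3, a short Rim protein without the Rab3-binding and Munc13-binding part, had ratios near 0, at 0.02 and 0.14 in the salt samples, against -0.01 and 0.21 in the control samples, and was not called.

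Of the 4 Rab3 GTPases, which mark vesicles for docking, 0 were called higher and 1 lower in both groups. Rab3b, the form prominent in pituitary and hypothalamic secretory cells, was below 0 in all samples, at -0.65 and -0.59 in the salt samples, against -0.78 and -0.72 in the control samples, with means of -0.62 ± 0.15 (adjusted p = 0.0167) in salt and -0.75 ± 0.15 (adjusted p = 0.00776) in control. Rab3a, the main neuronal form, had ratios of 0.08 and -0.47 in the salt samples, against -0.17 and -0.41 in the control samples, and was not called. Rab3c had mean ratios of 0.33 ± 0.15 in salt and 0.01 ± 0.15 in control, and Rab3d one of 0.20 ± 0.16 in salt, and neither was called. Rab3d was undetected on both control input arrays, and its control IP did not exceed the lowest signal detected there, so it has no control fold.

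Of 8 SNAREs of the plasma membrane and of synaptic vesicles measured, 3 were called higher and 3 lower in salt (median 0.04), and 3 higher and 2 lower in control (median -0.10). The higher calls were Stx2, Stx3 and Snap23, which are not of the classic synaptic complex. The lower calls were Stx1a and Snap25, with Vamp1 in salt. One of the higher calls in each group is Stx2, and over the 7 detected in the input there were 2 higher and 3 lower in salt (median -0.21) and 2 higher and 2 lower in control (median -0.36). Over all 8 the medians were -0.28 in salt and -0.41 in control with median scaling, and -0.06 and -0.20 with IP and input normalized apart. Stx1a had ratios of -1.03 and -0.76 in the salt samples, against -0.88 and -1.01 in the control samples, with means of -0.90 ± 0.16 (adjusted p = 0.00569) in salt and -0.95 ± 0.16 (adjusted p = 0.004) in control. Snap25 had ratios of -1.19 and -0.58 in the salt samples, against -1.37 and -1.06 in the control samples, with means of -0.88 ± 0.20 (adjusted p = 0.0119) in salt and -1.21 ± 0.20 (adjusted p = 0.00339) in control. Both plasma membrane SNAREs of the classic complex were thus below their input in every sample. The Snap25 call was lost without salt replicate 1 in salt (-0.58, adjusted p = 0.0578) and without control replicate 1 in control (adjusted p = 0.0578), and the Stx1a call in control was lost when either control sample was left out.

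Vamp2, the third partner, was also below 0 in all samples, at -0.11 and -0.31 in the salt samples, against -0.27 and -0.45 in the control samples, but was not called. Its adjusted p was 0.331 in salt and 0.105 in control. Vamp1, its counterpart in motor and fast-firing neurons, had ratios of -1.38 and -0.29 in the salt samples, against -0.84 and -0.30 in the control samples. It was called in salt, at -0.83 ± 0.26 (adjusted p = 0.0407), a value that was -0.29 without salt replicate 1 (adjusted p = 0.360) and was -1.38 without salt replicate 2. A second Vamp1 probe was also called, at -0.74 ± 0.23 (adjusted p = 0.0378), and the third was not, at 0.15 ± 0.24. Its control mean was -0.57 ± 0.26 (adjusted p = 0.122), and the difference between groups did not pass.

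Among the plasma membrane and vesicle SNAREs detected in the input, those called above it were Snap23 and Stx3. Snap23, the Snap25 relative of non-neuronal cells and of dendrites, had ratios of 0.47 and 0.78 in the salt samples, against 0.28 and 0.84 in the control samples, with means of 0.62 ± 0.19 (adjusted p = 0.0364) in salt and 0.56 ± 0.19 (adjusted p = 0.0478) in control. The calls for Snap23 were lost under median scaling, without the filter on dim probes, without salt replicate 2 in salt and in control when either control sample was left out. Stx3, whose ratios were given above, averaged 0.83 ± 0.20 (adjusted p = 0.016) in salt and 1.40 ± 0.20 (adjusted p = 0.00225) in control. A second Stx3 probe, at 0.22 ± 0.15 in control, was not called, and the salt call was lost without salt replicate 1 (0.48) and with the mean of both probes (0.44).

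Stx2, a syntaxin of epithelia and of the acrosome, was undetected on every input array, so its fold is a bound. IP over input was at least 1.1-fold in salt and at least 1.29-fold in control. It was kept through IP arrays alone and had to come out high, so these folds are given without a test. Stx4a, a plasma membrane syntaxin of dendrites and of glucose transport, had mean ratios of 0.30 ± 0.15 in salt and 0.15 ± 0.15 in control and was not called.

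Of the syntaxin binding proteins, 2 of 6 were called higher and 0 lower in salt, and 3 higher and 1 lower in control. Their medians were 0.31 in salt and 0.39 in control. Stxbp3a (Munc18c, under the file's name), which pairs with plasma membrane syntaxins outside the synapse, had ratios of 0.83 and 0.88 in the salt samples, against 0.90 and 0.84 in the control samples. These 4 values were close together, with means of 0.85 ± 0.15 (adjusted p = 0.00562) in salt and 0.87 ± 0.15 (adjusted p = 0.00443) in control. Stxbp5l (tomosyn-2), an inhibitor that occupies the SNARE partners of Vamp2, had ratios of 0.65 and 0.60 in the salt samples, against 0.43 and 0.69 in the control samples, with means of 0.63 ± 0.16 (adjusted p = 0.0188) in salt and 0.56 ± 0.16 (adjusted p = 0.0251) in control.

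Stxbp2 had ratios of 0.52 and -0.08 in the salt samples, against 0.75 and 0.59 in the control samples, with means of 0.22 ± 0.19 (adjusted p = 0.374) in salt and 0.67 ± 0.19 (adjusted p = 0.0242) in control. Stxbp6 (amisyn), another inhibitor of SNARE assembly, had ratios of -0.45 and -0.33 in the salt samples, against -0.42 and -1.22 in the control samples. Its control mean of -0.82 ± 0.21 (adjusted p = 0.0172) rested on control replicate 2, and without it was -0.42 (adjusted p = 0.370). For neither gene did the difference between the groups pass. Control calls for Stxbp3a, Stxbp5l and Stxbp2 were lost when either control sample was left out.

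The complexins had 2 of 4 genes measured. Cplx2, the main complexin of forebrain and endocrine cells, had IP levels of 8.99 and 8.87 in salt, against 8.95 and 9.65 in control, and input levels of 7.85 and 8.53 in salt, against 8.31 and 8.14 in control. Its ratios were 1.14 and 0.34 in the salt samples, against 0.65 and 1.51 in the control samples, above 0 in all samples, with salt replicate 1 and control replicate 2 high in their groups. It passed in control, at 1.08 ± 0.26 (adjusted p = 0.0141), and not in salt, at 0.74 ± 0.26 (adjusted p = 0.0544). The control call was lost without control replicate 2, at 0.65 (adjusted p = 0.242). Cplx1, the complexin of fast inhibitory and brainstem neurons, had ratios of 0.09 and -0.22 in the salt samples, against 0.12 and 0.10 in the control samples, and was not called.

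Among the proteins of the vesicle membrane and of the vesicle cluster, 1 of 6 was called, and it was higher in both groups (medians 0.20 in salt and 0.12 in control, but -0.21 and -0.19 under median scaling). Syn3, the synapsin of developing and immature neurons, had ratios of 0.82 and 0.45 in the salt samples, against 0.36 and 0.83 in the control samples, with means of 0.64 ± 0.18 (adjusted p = 0.0305) in salt and 0.59 ± 0.18 (adjusted p = 0.0362) in control. The call was lost without the filter on dim probes in both groups, without salt replicate 1 in salt, and in control under median scaling and when either control sample was left out, where the value without control replicate 2 was 0.36. Syn1 and Syn2, the adult synapsins, were not called, with means of 0.12 ± 0.17 and -0.08 ± 0.16 in salt and 0.08 ± 0.17 and -0.37 ± 0.16 in control. A second Syn1 probe was also not called, at -0.32 ± 0.21 in salt.

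Syp had ratios of 0.58 and 0.29 in the salt samples, against 0.33 and 0.41 in the control samples, short of the threshold (adjusted p = 0.0665 in salt and 0.101 in control). With median scaling they were below 0, at -0.04 and -0.19 in salt, against -0.24 and -0.13 in control, so no direction is given for Syp. Sv2a, the target of the antiepileptic drug levetiracetam, had ratios of 0.35 and 0.22 in the salt samples, against 0.25 and 0.09 in the control samples, and Sv2b had means of -0.10 ± 0.16 in salt and 0.02 ± 0.16 in control. Neither was called. Snap91 (AP180), which assembles clathrin for vesicle retrieval, had ratios of -0.55 and -0.15 in the salt samples, against -0.16 and -0.33 in the control samples, and was not called. A second probe lay on the other side of 0, with means of 0.27 in salt and 0.22 in control, so Snap91 has no settled direction.

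The synaptotagmins, calcium and phospholipid sensors of exocytosis, had a median ratio below that of the measured members, -0.15 in salt and -0.27 in control. It was -0.02 and -0.15 with IP and input normalized apart, -0.03 and -0.15 with the deposited ratios, and -0.25 and -0.36 with median scaling. Of 14 measured, 0 were called higher and 2 lower in salt, and 1 higher, Syt2, and 2 lower in control. Syt13, a synaptotagmin that does not bind calcium, had the lowest mean ratio of the 60 measured members in salt. Its IP levels of 6.27 and 6.77 in salt, against 6.72 and 6.55 in control, were all below its input levels of 7.83 and 7.81 in salt, against 7.82 and 7.64 in control. The ratios were -1.57 and -1.04 in the salt samples, against -1.10 and -1.09 in the control samples, with means of -1.30 ± 0.18 (adjusted p = 0.00264) in salt and -1.09 ± 0.18 (adjusted p = 0.00352) in control, 2.47-fold and 2.13-fold lower in the IP. The control call missed the threshold without control replicate 2 (adjusted p = 0.0564).

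**Figure D3:**
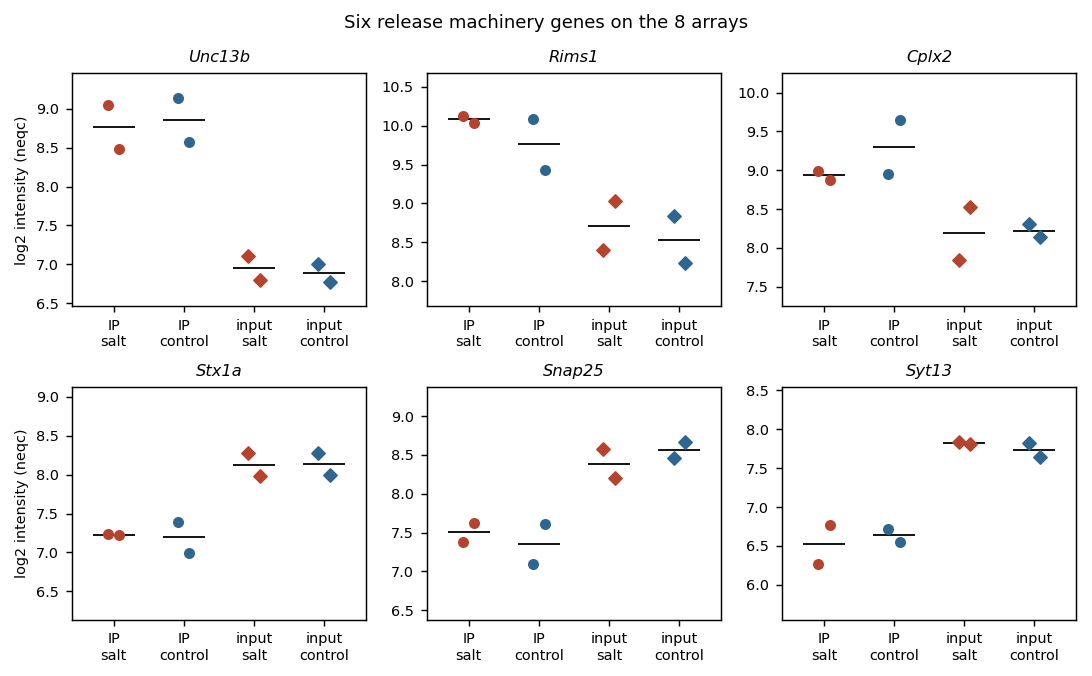
Normalized log2 intensity of Unc13b, Rims1, Cplx2, Stx1a, Snap25 and Syt13 on each of the 8 arrays (points), with the mean of each pair as a bar, salt left of control and IP left of input. For Unc13b the 4 IP arrays lie above the 4 input arrays and for Syt13 below them, and salt lies near control in each fraction.

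Syt5 had ratios of -0.30 and -0.26 in the salt samples, against -0.76 and -0.61 in the control samples, with means of -0.28 ± 0.15 (adjusted p = 0.179) in salt and -0.69 ± 0.15 (adjusted p = 0.0108) in control. The difference of 0.41 ± 0.22 between the groups had an unadjusted p of 0.0996 and an adjusted p of 1 in limma, and the control call was lost when either control sample was left out. Syt16, an atypical member without calcium binding, had ratios of -0.88 and -0.28 in the salt samples, against -0.43 and -0.37 in the control samples. It was called in salt, at -0.58 ± 0.19 (adjusted p = 0.0423), and the value was -0.28 without salt replicate 1 (adjusted p = 0.318). Syt2 was undetected on all input arrays and on the salt IP arrays, and its control IP lay below the lowest signals detected in the control input, so no fold over input is given.

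The calcium sensor Syt1 had ratios of -0.70 and -0.17 in the salt samples, against -0.47 and -0.41 in the control samples, all below 0, with means of -0.44 ± 0.18 (adjusted p = 0.0871) in salt and -0.44 ± 0.18 (adjusted p = 0.0846) in control, which missed the threshold. Syt4, a synaptotagmin of dense-core vesicles in vasopressin and oxytocin neurons, had ratios of 0.22 and 0.15 in the salt samples, against -0.07 and 0.10 in the control samples, and was not called. The slow, high-affinity sensor Syt7 had mean ratios of 0.02 ± 0.17 in salt and -0.14 ± 0.17 in control, and Syt9, another sensor of fast release, of -0.25 ± 0.15 in salt and -0.32 ± 0.15 in control. Of the Doc2 proteins, high-affinity calcium sensors of spontaneous release, Doc2a averaged -0.34 ± 0.16 in salt and -0.02 ± 0.16 in control. Doc2b had ratios of 0.25 and 0.12 in the salt samples, against -0.03 and -0.14 in the control samples. Neither was called.

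The remaining family members are SNAREs of endosomes, Golgi and endoplasmic reticulum, which serve traffic inside the cell. Of 12 measured, 0 were called higher and 3 lower in salt, and 0 higher and 4 lower in control, with medians of -0.21 in salt and -0.32 in control (-0.36 and -0.53 with median scaling, and -0.11 in salt with the deposited ratios). Stx7, a syntaxin of late endosomes, had ratios of -0.91 and -0.77 in the salt samples, against -0.79 and -0.82 in the control samples, with means of -0.84 ± 0.15 (adjusted p = 0.00609) in salt and -0.80 ± 0.15 (adjusted p = 0.00618) in control. Stx8, its partner in endosome fusion, had ratios of -1.20 and -0.72 in the salt samples, against -1.01 and -0.80 in the control samples, with means of -0.96 ± 0.18 (adjusted p = 0.00645) in salt and -0.91 ± 0.18 (adjusted p = 0.00689) in control. Probes for Stx8 disagreed: 3 of its 4 were called below 0 in control and 1 above, undetected in the control input and at least 1.28-fold above it (adjusted p = 0.0468).

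Stx6, a syntaxin between Golgi and endosomes, had ratios of -0.73 and -0.38 in the salt samples, against -0.64 and -1.06 in the control samples, with means of -0.55 ± 0.18 (adjusted p = 0.044) in salt and -0.85 ± 0.18 (adjusted p = 0.00912) in control. A second Stx6 probe stood at 0.06 ± 0.16 in control and was not called, and the salt call was lost under 7 of 13 alternatives. Stx12 (syntaxin 13), of recycling endosomes, had ratios of -0.74 and -0.25 in the salt samples, against -0.69 and -0.46 in the control samples, with means of -0.50 ± 0.18 (adjusted p = 0.0619) in salt and -0.58 ± 0.18 (adjusted p = 0.0363) in control. The difference between the groups did not pass. Vamp4, the SNARE of endosomal retrieval, had ratios of -0.47 and -0.10 in the salt samples, against -0.41 and -0.21 in the control samples, and was not called. The control calls for Stx7, Stx8 and Stx12 were lost when either control sample was left out, and that for Stx6 without control replicate 2.

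Several probes were kept for 15 members, and in 4 of these the probes differed in their call in control, namely Stx3, Stx6, Stx8 and Stxbp4. In salt the call differed for 5, Rims1, Stx3, Stx6, Stx8 and Vamp1. In both groups the means of the probes lay on opposite sides of 0 for Snap91, Stx5a, Stx8, Syn1, Syt11 and Vamp1. For Stxbp4, whose brightest probe was at 0.21 ± 0.29, the second was called above 0 at 0.59 ± 0.16 (adjusted p = 0.0231). Across 59 of the 60 members, the genomic span of the gene and its log2 IP/input ratio had a Spearman rho of 0.17 in salt and 0.159 in control. Across 9734 genes rho was 0.331 in salt and 0.332 in control. These are correlations across genes, which are not independent replicates, and are given as a description.

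Genes of the same pathway that are not members were listed by role as well, 64 of them measured. Between salt and control 0 of these 64 passed in the ratio, the IP or the input. Against 0, 11 were called higher and 10 lower in salt (median 0.02), and 12 higher and 10 lower in control (median -0.06). Of all genes 18.2% were called higher and 18.6% lower in salt, and 19.4% and 20.9% in control, so these counts set the list apart in neither group. The active zone scaffolds had 3 of 12 called higher and 1 lower in each group. Pclo (piccolo), a giant scaffold of the active zone, averaged 0.88 ± 0.15 in salt and 0.98 ± 0.15 in control, and Lin7b, a small adaptor of the same protein network, averaged -0.66 ± 0.16 in salt and -0.75 ± 0.16 in control. Erc1, a Rim-binding scaffold, was called above 0 in both groups and was undetected on every input array. It was thus kept through IP arrays alone and had to come out high. Its calls are within the higher counts of this paragraph and are no support for a pattern.

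**Figure D4:**
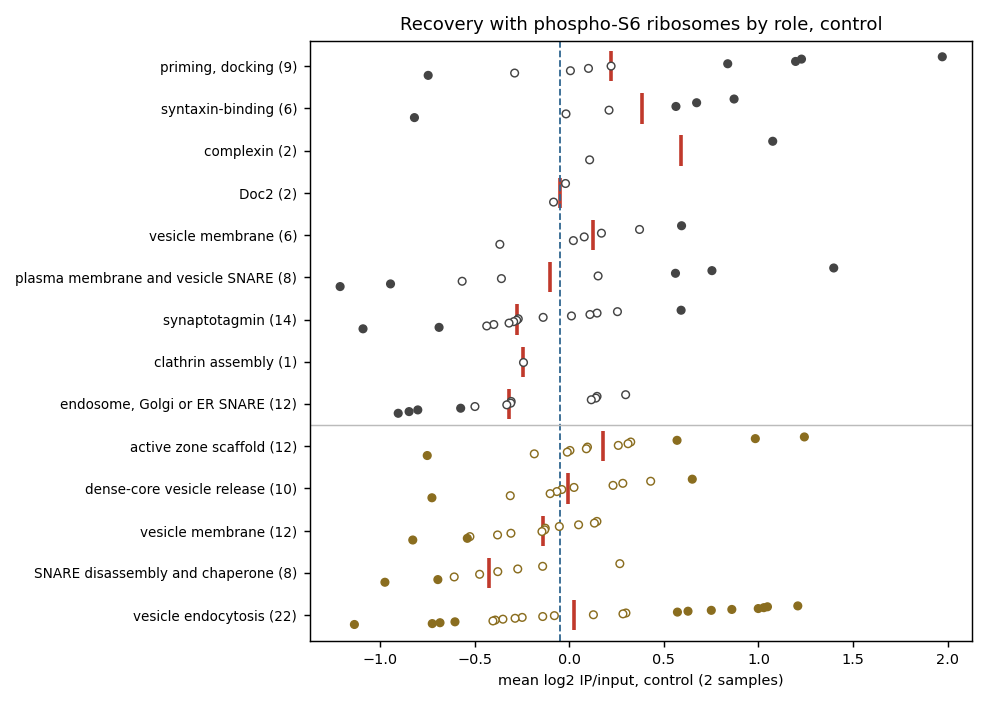
Mean log2 IP/input ratio in the control samples (horizontal axis, n = 2 samples) of the measured members by role, and below the line of the other pathway genes, with filled points for called genes, a red bar for each median and a dashed line at the median of all genes. Priming and docking genes reach 1.97 with a median of 0.22, synaptotagmins have a median of -0.27 and intracellular SNAREs one of -0.32. Stx2, Syt2 and Erc1, kept through IP arrays alone, are among the filled points.

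The genes of vesicle endocytosis had calls on both sides, as had all genes, with 6 of 22 called higher and 4 lower in salt and 8 higher and 4 lower in control. Synj2, a lipid phosphatase of uncoating, averaged 1.36 ± 0.18 in salt and 1.05 ± 0.18 in control. Its input levels, 6.02 and 6.20 in salt, against 6.23 and 6.20 in control, lay near the lowest signals detected on input arrays (6.10 to 6.25). The Synj2 ratios are thus limited by that signal. Fcho1, which starts clathrin pits, averaged 0.99 ± 0.17 in salt and 1.21 ± 0.17 in control. Clta, a clathrin light chain, averaged -0.98 ± 0.15 in salt and -1.14 ± 0.15 in control. Of the SNARE disassembly and chaperone genes 0 of 8 were called higher and 2 lower in each group. Synpr (synaptoporin), a relative of Syp, was lowest of the 12 other vesicle membrane genes, at -0.84 ± 0.17 in salt and -0.83 ± 0.17 in control.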

How the data were processed

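Per the file headers, the authors deposited linear, unscaled intensities of each probe together with detection p-values. A deposited ratio per sample is the IP intensity over the input intensity (largest relative gap to that quotient 1.6e-09). The authors' deposited log2 fold of salt over control per probe was not used. The submitters' processing notes name GenomeStudio, without its version, and RNA was amplified and biotin-labelled per the labels' protocols.

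Intensities were corrected and quantile-normalized over 8 arrays with neqc (limma 3.58.1, R 4.3.3; negative controls inferred from the detection p-values, offset 16). Ratios of the 4 samples were fitted by group (2 residual degrees of freedom before moderation) and levels by 4 group means (4 residual degrees of freedom), with lmFit and eBayes, after tests on simulated data. Of 25697 probes, 20736 had a current symbol, 3841 took theirs from an older symbol and 1120 kept the file's name. A fold against a group without a detected array is written "at least", taken against the higher of the probe's own signal and the lowest signal detected, and is left out where it is under 1.

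Members and gene lists were chosen with earlier results of these data known, so lists have counts and medians and no test. Named genes are, per comparison, up to 10 members each way ranked by change, that passed with samples on 1 side, filled up to 5 with those of unadjusted p under 0.05, plus the release core and the brightest member of each role. Other members given beside them (Rab3c, Rab3d, Stx4a, Stxbp4, Syn2, Sv2b, Syt7, Syt9 and Doc2a) were chosen after their values were seen. Of the other pathway lists up to 2 genes each way were allowed. Same-numbered samples were checked for pairing (correlation of their deviations 0.136 in the IP, -0.229 in the input and 0.009 in the ratio over 14199 probes), and the numbers only name samples. Alternatives covered background, scaling, filters, probe choice, the deposited ratios and each sample left out, where a lone sample is assumed to vary like the others. The number of arrays limits precision. Some genes are counted in the totals but not reported here by name.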

Additional observations from a re-analysis of the deposited data

Results flagged for a closer look

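For Doc2b, a high-affinity calcium sensor of spontaneous release, the log2 IP/input ratio was above 0 in both salt samples (mean 0.18) and below 0 in both control samples (mean -0.08). The difference of 0.27 ± 0.22 (SE) did not pass (unadjusted p = 0.257 and adjusted p = 1 in limma). Of the 60 measured members it was the 1 with both salt samples on one side of 0 and both control samples on the other. How many of all genes show this pattern was not counted, so it is not read as a trait of Doc2b. A second Doc2b probe did not show this, with ratios of -0.04 and 0.30 in the salt samples, against -0.08 and -0.02 in the control samples.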

How the results depend on the processing

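No called member reversed its direction. Between salt and control, all 88 counts over the ratio, the IP and the input were 0 under every alternative run, the replicate block (0 members higher and 0 lower in each of the 3 readouts) and a crossed pairing added after seeing the data (0 and 0 in the IP and the input) included. Against 0, 17 members were lower in salt with median scaling, where 9 was the count reported, and 17 were lower in control with median scaling and 17 with the authors' deposited ratios, where 10 was reported. Leaving out each sample in turn gave 4 to 14 members higher and 1 to 15 lower in control, and 9 to 12 higher and 7 to 12 lower in salt. With median scaling the excess of lower calls was shared by all genes, as given above. The share of all genes called was not counted with the deposited ratios or with samples left out. The counts under those settings are therefore not read as a trait of the members. The member median was -0.24 in both groups with median scaling and -0.11 in salt without salt replicate 1. Of 1611 values of named members under alternatives, 1513 stayed on their side of the threshold, 52 lost their call and 46 gained one. In salt Unc13b, Unc13c, Rims1, Rims2, Rab3b, Stx1a, Stx7, Stx8, Syt13, Stxbp3a and Stxbp5l were called under all 13 alternatives, and in control Unc13b, Rims1, Rims2 and Stx3. The deposited ratios, which carry background in both channels, gave called values more than 1.5 times smaller for 11 of 39. The cause of these changes was not tested. A block for the slide was not run, since the headers give no slide. Members near the background, such as Syt2 and Stx2, are limited by their signal.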
